A study of Homo sapiens with 32 samples.

Results

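Genes that mark hepatocytes were examined in the lung cancer lines A549 and H1299, which carried a hairpin RNA against SMARCA2 or a control hairpin. The set held 37 genes: the HNF4, FOXA and NR5A2 transcription factors, and genes for liver-type secreted, metabolic and surface proteins. They were chosen by name as liver-type genes expressed in A549, with earlier results of these data known. Of these, 33 had a probe set with a single gene symbol on the array, out of 19775 genes with such a probe set, and 28 were bright enough to be tested, out of 14695. For APOB, APOA1, APOC3, MTTP and ALB the probe set that stood for the gene was too dim to be tested. A second APOC3 probe set passed the filter and was not called for the knockdown in A549. HNF4A, GC and UGT2B7 had no probe set named in the table used here, VTN shared its probe sets with another gene, and these 4 genes were not analysed here.

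The design compared cells with and without SMARCA2, and intact with mutated SMARCA2 or SMARCA4 supplied from a cDNA. Both lines are untreated and are known to lack functional SMARCA4, so SMARCA2 is the ATPase that drives their SWI/SNF nucleosome remodelling complexes. Each stable line carried the hairpin shLuc, against luciferase, or S2sh7, against the part of SMARCA2 that encodes the ATPase domain. A second construct gave GFP or a cDNA, which was wild type (WT), mutated in the bromodomain (BRD) or without ATPase activity (ATPdead). A549 received SMARCA4 cDNAs, and H1299 received SMARCA2 cDNAs. H1299 had 3 arrays, labelled biological replicates, in each of 8 groups. A549 had 1 array in each of 8 groups, so no A549 group has a replicate of its own. Whether the H1299 replicates are independent cultures is not stated in the labels, and the p-values measure the spread of these arrays alone, which may be technical. All H1299 arrays were labelled as 1 batch and all A549 arrays as another, so line and batch cannot be told apart.

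Hepatocytes secrete most plasma proteins, including fibrinogen, complement, carrier proteins and protease inhibitors, and they hold the urea cycle and the enzymes of aromatic amino acid breakdown. Their genes are switched on by a network of transcription factors that bind each other's promoters, among them the HNF1, HNF4, FOXA and NR5A2 families. FOXA factors can bind DNA within closed chromatin, and SWI/SNF complexes open such sites to other factors. A549 is an adenocarcinoma line that is known to make several of these liver proteins although it comes from the lung.

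To show where such factors could bind, the promoters of the genes were read from RefSeq (GRCh38.p14) over the 250 bases before each transcription start. A promoter was held for 26 of the 37 genes. Short words were searched on both strands. For FOXA they were TGTTTAC and its variants TGTTTGC or TATTTAC. For HNF1 the word was GTTAAT. For HNF4 either of CAAAGTCCA or CAAAGTTCA counted, and for NR5A2 the word was CAAGGTCA. FOXA letters stood in 11 of the 26 promoters, against 8.27% of all 35114 promoters of that length. HNF1 letters stood in 9, against 6.23% of all. HNF4 letters stood in 1 promoter, that of AHSG (0.575% of all), and NR5A2 letters in 1, that of SERPINA1 (1.14% of all). Letters of 2 or more of the factors stood in 7 of the 26 promoters, against 1.16% of all. Such a match is a description of the letters, not evidence of binding.

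The 150 bases before the start are printed as examples. They are given for 4 genes whose RNA fell by more than 2 log2 with the knockdown in A549 with GFP or ATPdead. They are also given for SERPINA1, which fell in both lines, and for AHSG. AHSG fell by 0.53 log2 with GFP or ATPdead at the probe set used, and by 1.83 in a second set. ALB, which was dim in every array, stands beside them. Each runs 5′ to 3′ on the gene's own strand, with motif letters in capitals and in either orientation. The windows are chr17:66229416-66229565 (minus strand) for APOH, chr4:154590743-154590892 (minus strand) for FGA, chr4:154562861-154563010 (plus strand) for FGB and chr9:121050276-121050425 (minus strand) for C5. They are chr14:94388603-94388752 (minus strand) for SERPINA1, chr3:186612910-186613059 (plus strand) for AHSG and chr4:73404137-73404286 (plus strand) for ALB.
APOH: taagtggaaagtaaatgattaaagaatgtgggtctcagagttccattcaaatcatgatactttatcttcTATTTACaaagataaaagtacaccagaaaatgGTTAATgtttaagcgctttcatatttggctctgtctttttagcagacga
FGA: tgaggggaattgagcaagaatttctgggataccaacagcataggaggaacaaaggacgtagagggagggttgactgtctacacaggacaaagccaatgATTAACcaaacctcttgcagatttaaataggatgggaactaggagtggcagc
FGB: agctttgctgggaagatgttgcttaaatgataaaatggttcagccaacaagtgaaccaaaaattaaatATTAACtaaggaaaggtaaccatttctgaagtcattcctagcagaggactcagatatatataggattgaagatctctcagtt
C5: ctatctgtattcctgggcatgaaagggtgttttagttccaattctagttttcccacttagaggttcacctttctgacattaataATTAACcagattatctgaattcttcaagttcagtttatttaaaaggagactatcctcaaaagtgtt
SERPINA1: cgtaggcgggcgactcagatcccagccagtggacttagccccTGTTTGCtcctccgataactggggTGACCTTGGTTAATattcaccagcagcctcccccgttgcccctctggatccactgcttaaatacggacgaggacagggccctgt
AHSG: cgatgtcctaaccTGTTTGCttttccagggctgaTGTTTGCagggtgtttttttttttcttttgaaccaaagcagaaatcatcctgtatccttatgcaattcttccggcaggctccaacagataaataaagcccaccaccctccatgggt
ALB: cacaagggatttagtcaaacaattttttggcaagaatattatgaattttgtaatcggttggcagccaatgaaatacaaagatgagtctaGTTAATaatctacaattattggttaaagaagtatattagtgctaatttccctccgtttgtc
APOH holds a FOXA word and an HNF1 word in the window. FGA, FGB and C5 each hold 1 HNF1 word in the window. SERPINA1 holds words for FOXA, NR5A2 and HNF1, of which the NR5A2 and HNF1 words lie side by side. AHSG holds the FOXA word TGTTTGC at 2 places. The ALB window holds an HNF1 word, so the same letters stood before genes that were high in A549 and before one that was not. Among the 16 matched genes that fell with the knockdown in A549 without an active SMARCA4, 6 held a FOXA word and 6 an HNF1 word. Among the 5 other tested genes, 3 held a FOXA word and 1 an HNF1 word. A word of any of the factors stood in 8 of the 16 and in 3 of the 5. AMBP, counted among the 5, fell by 2.26 log2 with GFP or ATPdead in a second probe set. Every printed window holds a word, while the same window of A1CF, which fell by 2.18 log2, holds none.

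Levels are given as log2 of the deposited RMA intensity of 1 probe set per gene, and log2 5 was taken as the limit under which a reading was near background. The median intensity of an array was 26.4 to 27.3 for H1299, while that of A549 arrays was 40.1 to 41.2, so the lines were normalized apart and a level was compared between them only as a description. In H1299 the correlation of replicates was 0.9976 to 0.9988. S2sh7 lowered SMARCA2 in A549 by 3.02 log2 over the 4 cDNAs (SE 0.0801, limma adjusted p = 0.0016). With GFP it fell from 8.31 to 5.13, and with ATPdead from 8.42 to 5.63. SMARCA2 fell from 8.57 to 5.47 with WT and from 8.63 to 5.63 with BRD, so the knockdown was of like size in the 4 pairs. Of 7 tested SMARCA4 probe sets, 1, chosen after its values were seen, followed the cDNAs in A549: with shLuc it read 4.56 with GFP, 6.64 with WT, 6.91 with BRD and 6.85 with ATPdead. With S2sh7 the same probe set read 4.97, 7.88, 7.91 and 7.24 in that order.

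More of the hepatocyte-type genes read over log2 5 in A549 with the control hairpin than in H1299. The same cut was used for both lines, though the A549 arrays had the higher median intensity. By mean rank among all genes, over all arrays of a line, 27 of the 33 stood higher in A549. TF, AMBP, HNF4G and SERPINA1 were among those that did not. Of the 33 genes, 27 read over log2 5 in all 4 A549 shLuc arrays, as did 69.1% of all genes. In H1299, 23 of the 33 read under log2 5 in all 24 arrays, as did 35.1% of all genes. Both conditions together, over 5 in all A549 shLuc arrays and a median of at most 5 in H1299, held for 17 of the 33 genes and for 10.7% of all genes. Since the genes were chosen as expressed in A549, these counts describe the choice. The lowest A549 shLuc array lay above all 24 H1299 arrays in 29 of the 33, and in 61.4% of all genes.

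Among the 33 genes, the widest gaps between the lines were those of CPS1, FGG and FGB. CPS1, the first and rate-limiting enzyme of the urea cycle, averaged 12.38 in the 4 A549 shLuc arrays against a median of 3.36 in H1299. FGG, the fibrinogen gamma chain, averaged 10.99 against 3.20. AADAC, a lipase of the endoplasmic reticulum, averaged 8.88 against 3.71, and HGD, which opens the ring of homogentisate in tyrosine breakdown, 10.26 against 3.98. A1CF, the RNA-binding partner of the editing enzyme APOBEC1, averaged 7.69 against 4.50. The marker genes A1CF, HGD and AADAC were thus over log2 5 in A549 with shLuc. ALB, the main plasma protein of the liver, averaged 3.40 in A549, APOB 4.35 and MTTP 3.05, so defining hepatocyte genes were at background. SERPINA1, which encodes alpha-1 antitrypsin, was well above log2 5 in both lines. It averaged 6.97 with shLuc in A549, and its median over all H1299 arrays of both hairpins was 6.49. With shLuc alone, its H1299 group means were 6.78 to 7.32.

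**Figure D1:**
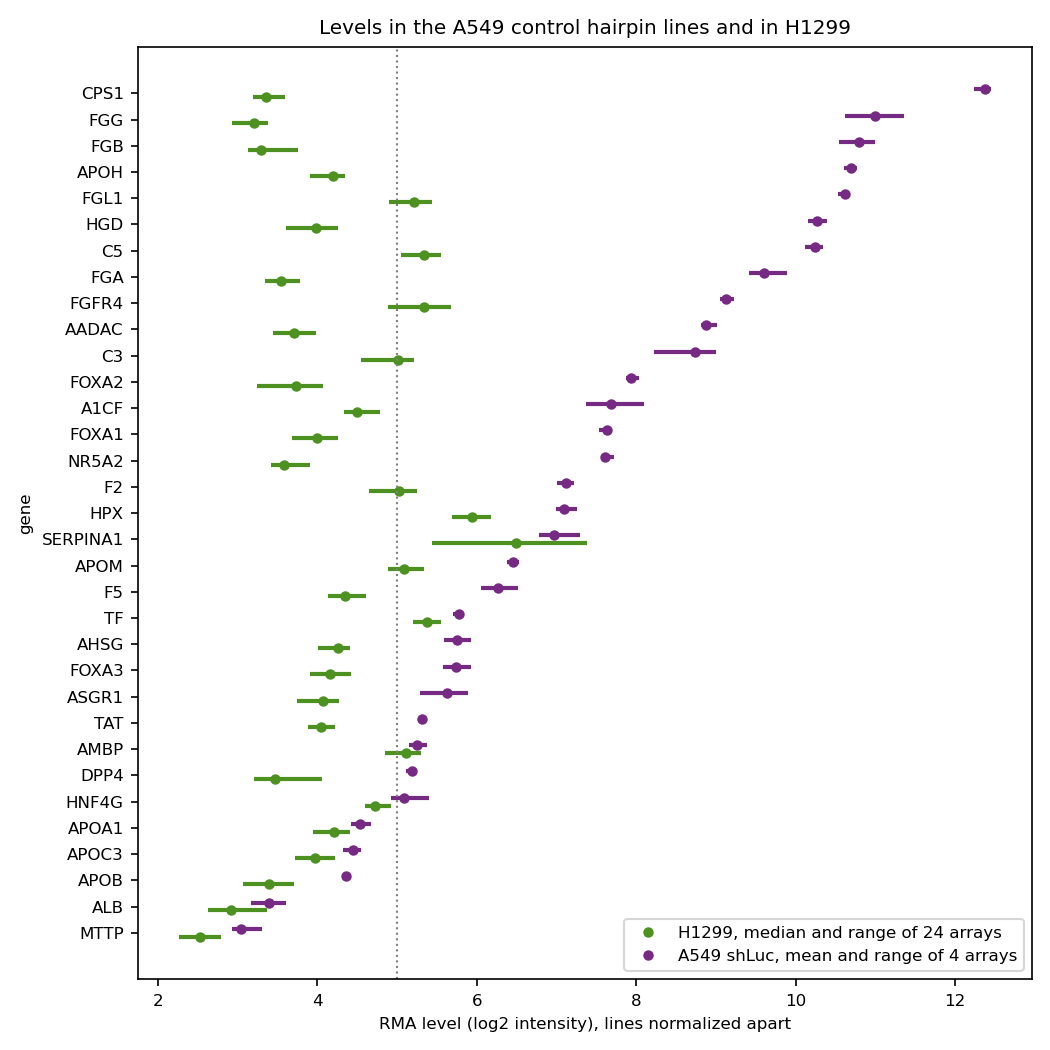
Level of the 33 hepatocyte-type genes with a probe set, on an axis of log2 RMA intensity. Purple points and bars are the mean and range of 4 A549 shLuc arrays, green ones the median and range of 24 H1299 arrays, and the dotted line is log2 5. CPS1 is at 12.38 in A549 and 3.36 in H1299, while ALB is near background in both.

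In A549 without an active SMARCA4, that is with GFP or ATPdead, the knockdown of SMARCA2 lowered most of these genes. Liver-type secreted and metabolic genes fell by up to a measured 35.3-fold (HGD, to readings near background), and FOXA2 fell with them, while FOXA1 and AADAC rose. HNF4G was called lower too, but it read near the background limit with shLuc, so the size of its fall is not known. Of 28 tested genes 21 were called lower and 2 higher, and the median was -1.05 log2. Over all 14695 genes 22.9% were called lower and 27% higher, with a median of 0.004. Of the 28, TF, AMBP, NR5A2, TAT and ASGR1 were not called. The GFP and ATPdead arrays stood as the 2 arrays of a class under each hairpin, in a limma fit of 4 classes with 4 residual degrees of freedom. Calls were made at a Benjamini-Hochberg adjusted p under 0.05 over all genes tested, and the adjusted p-values that follow are of that fit. The genes and the class of active cDNAs were chosen with earlier results of these arrays known, so the counts describe that choice too. Different constructs share a class, so the spread is between constructs. In bulk RNA, fewer cells of a type and less RNA per cell cannot be told apart. Leaving out each cDNA in turn gave 20 to 23 called genes, of which HPX, F2, AADAC and FGG were lost in some runs.

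**Figure D2:**
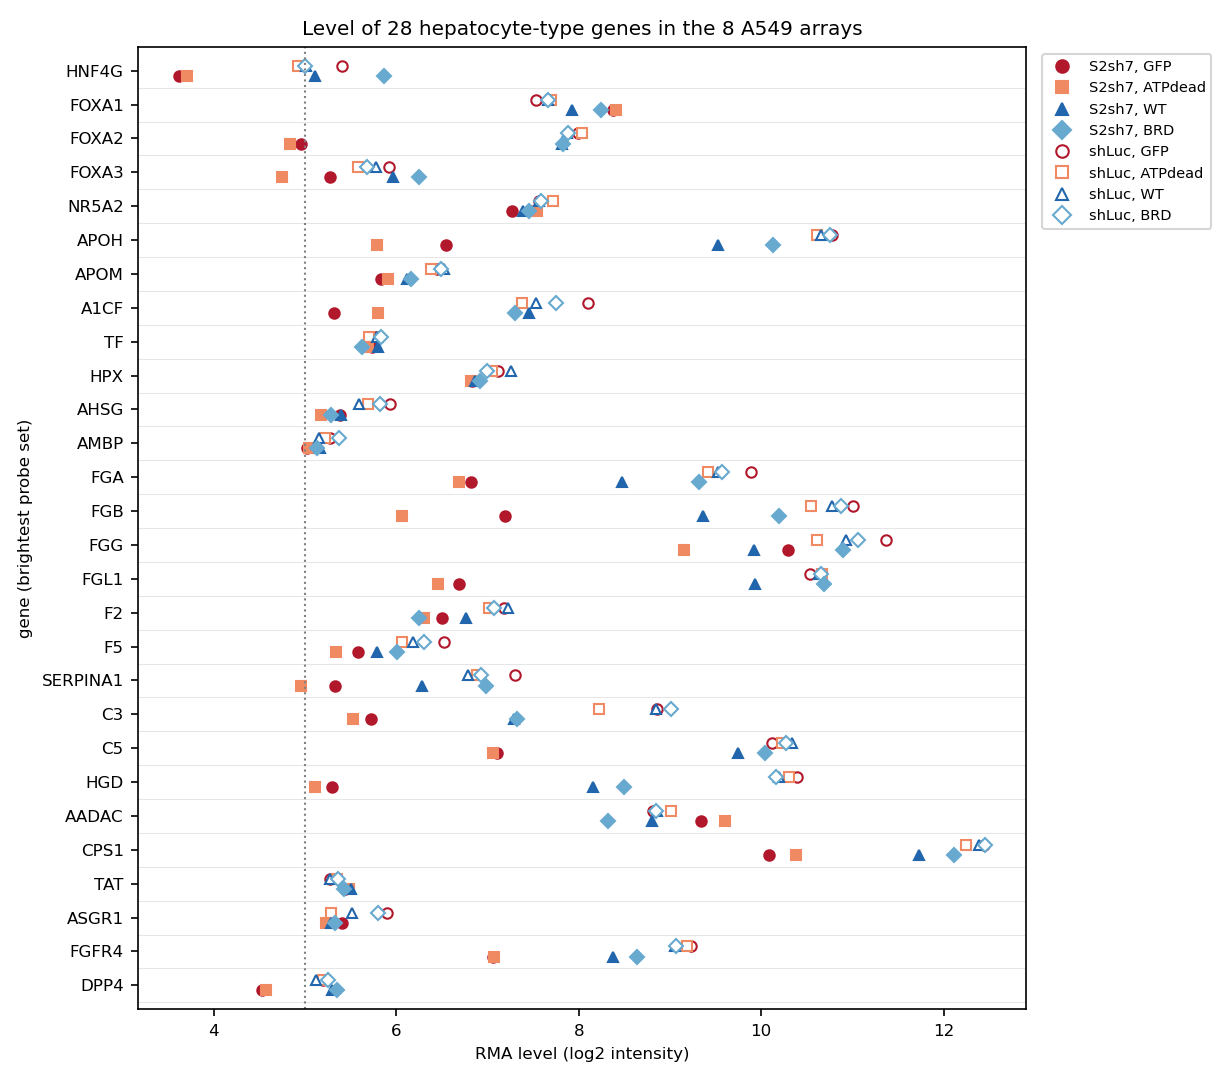
Level of the 28 tested genes in each of the 8 A549 arrays, on an axis of log2 RMA intensity. Open symbols are shLuc, filled symbols S2sh7, and shape and colour give the cDNA. The dotted line is log2 5. For HGD, APOH, FGB, FGL1 and FOXA2 the filled GFP and ATPdead symbols stand apart on the left.

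Among the regulators, FOXA2 showed the widest split between cDNAs. FOXA2, a forkhead factor of liver and gut endoderm, read 7.99, 7.87, 7.88 and 8.03 with shLuc and GFP, WT, BRD and ATPdead. With S2sh7 it read 4.96 with GFP and 4.83 with ATPdead, but 7.81 with WT and 7.82 with BRD. The S2sh7 arrays with GFP and ATPdead thus lay near background, and the other 6 arrays lay within 7.81 to 8.03. The fall without an active SMARCA4 was 3.12 log2 as measured (SE 0.0625, adjusted p = 1.17e-07). With the readings under log2 5 set to that limit, it was at least 8.06-fold. A second FOXA2 probe set, brighter in A549, fell by 2.67, and a dim one by 0.21, which was not called.

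HNF4G, a nuclear receptor related to HNF4A, was near the background limit. With shLuc it read 5.40 with GFP, 5.01 with WT, 5.00 with BRD and 4.92 with ATPdead. The S2sh7 readings were 3.61, 5.10, 5.87 and 3.70 in that order. The fall with GFP or ATPdead was 1.51 log2 (SE 0.235, adjusted p = 0.00104). With the lower readings set to log2 5 the fall was at least 0.16, so its size is not known. FOXA3, a further FOXA factor of liver and gut, went from 5.92 to 5.27 with GFP and from 5.58 to 4.74 with ATPdead, a class effect of -0.75 log2.

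FOXA1 moved the other way. It read 7.53, 7.66, 7.66 and 7.70 with shLuc and GFP, WT, BRD and ATPdead, and 8.38, 7.93, 8.24 and 8.40 with S2sh7. Every S2sh7 array lay above every shLuc array. The rise was 0.78 log2 with GFP or ATPdead (SE 0.104, adjusted p = 0.000453) and 0.42 with WT or BRD (adjusted p = 0.0253). That second call was lost on leaving out any cDNA (adjusted p = 0.0504 without GFP or without ATPdead, 0.0599 without WT and 0.215 without BRD). NR5A2, the liver receptor homologue that drives bile acid synthesis genes, read 7.57 and 7.72 with shLuc, and 7.27 and 7.54 with S2sh7, with GFP and ATPdead respectively. None of its 3 tested probe sets was called.

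**Figure D3:**
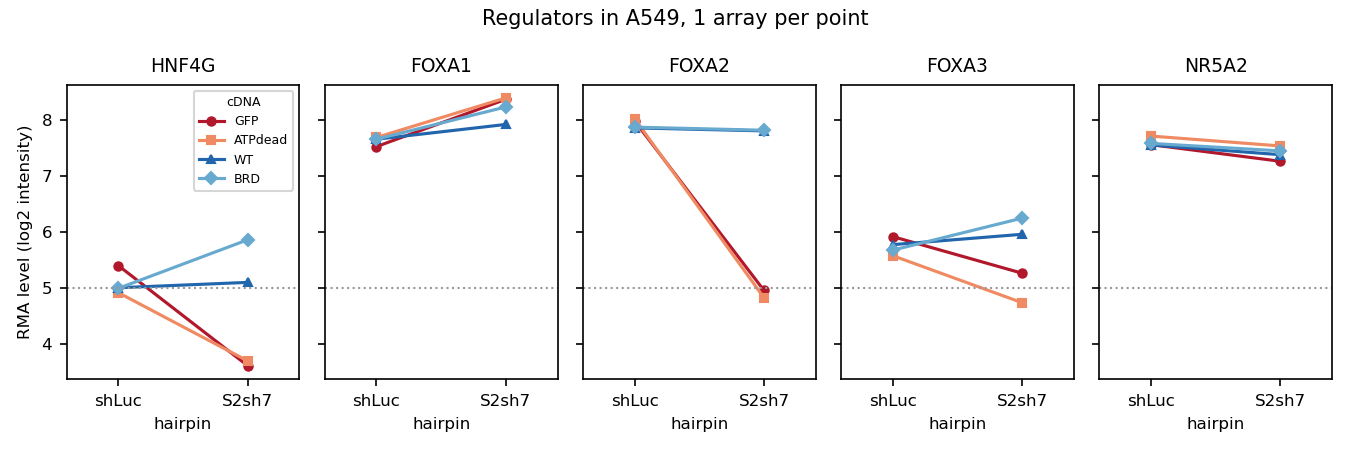
Level of 5 regulators in A549 under shLuc and S2sh7, in log2 RMA intensity, with 1 array per point and a line for each cDNA. The FOXA2 lines of GFP and ATPdead drop from about log2 8 to under 5, those of WT and BRD stay between 7.81 and 7.88, and the 4 FOXA1 lines rise.

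The fibrinogen genes fell together but not equally. FGA, FGB and FGG encode the chains of the clotting protein fibrinogen and lie next to each other in the genome. FGB read 11.00 with shLuc and GFP and 10.55 with shLuc and ATPdead, and 7.19 and 6.06 with S2sh7. The class effect was -4.15 log2, a 17.8-fold fall (SE 0.378, adjusted p = 6e-05). FGA fell from 9.89 to 6.82 with GFP and from 9.42 to 6.68 with ATPdead (class effect -2.90, SE 0.254, adjusted p = 4.8e-05). FGG went from 11.36 to 10.29 and from 10.62 to 9.15, a class effect of -1.27 (SE 0.429, adjusted p = 0.0395). The FGG call was lost without WT or without BRD (adjusted p = 0.0539 in each) and without ATPdead (-1.07, adjusted p = 0.103). With all arrays it was lost under eBayes with trend and robust settings (adjusted p = 0.148). FGL1, a secreted fibrinogen-like protein of hepatocytes, read 10.53 and 10.67 with shLuc against 6.69 and 6.45 with S2sh7. Its class effect was -4.03 (SE 0.208, adjusted p = 3.51e-06).

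Apolipoprotein and carrier genes ranged from large falls to none. APOH, a plasma glycoprotein that binds phospholipids, read 10.78 and 10.61 with shLuc and GFP or ATPdead, and 6.55 and 5.79 with S2sh7. This was a 23-fold fall (-4.53 log2, SE 0.254, adjusted p = 5.18e-06). A second APOH probe set changed by -0.47. APOM, an apolipoprotein of high-density lipoprotein, fell by 0.54. A1CF fell from 8.10 to 5.31 with GFP and from 7.37 to 5.80 with ATPdead, a class effect of -2.18 (SE 0.238, adjusted p = 0.000154). AHSG (fetuin-A, an inhibitor of mineral deposition) fell by 0.53 and HPX (the heme carrier hemopexin) by 0.26. The HPX call was lost without GFP (adjusted p = 0.254), without ATPdead (0.169), with no filter (0.0563) and with centred arrays (0.0625). TF, the iron carrier transferrin, read 5.78 and 5.73 with shLuc and S2sh7 in GFP cells, and AMBP 5.28 and 5.02.

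For several carriers the value depended on the probe set. The set used for each gene was the brightest over all 32 arrays, of which 24 are H1299. A second AMBP probe set, brighter in A549 (mean 7.32 with shLuc, against 5.25), fell by 2.26 log2 with GFP or ATPdead. AHSG had a second set at -1.83, and TF one at -0.70, and both were called. All 4 HGD probe sets fell, by 2.59 to 5.14, and both FOXA1 sets rose, by 0.78 and 1.31. A1CF fell in both of its sets, by 2.18 and 1.62. Dim probe sets moved least: 1 of FGA gave -0.25 and 1 of FGFR4 gave 0.08.

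Complement and clotting genes fell as well. C5, a terminal complement component, read 10.12 and 10.23 with shLuc and GFP or ATPdead, and 7.10 and 7.06 with S2sh7. It fell by 3.09 log2 (SE 0.0959, adjusted p = 3.95e-07). C3, the central complement protein, went from 8.86 to 5.72 and from 8.22 to 5.52 (class effect -2.92, SE 0.182, adjusted p = 8.69e-06). SERPINA1 went from 7.30 to 5.33 and from 6.89 to 4.96 (class effect -1.95, SE 0.233, adjusted p = 0.00025). F5 (coagulation factor V) fell by 0.83 and F2 (prothrombin) by 0.69. The F2 call was lost without GFP (adjusted p = 0.0697) or without ATPdead (adjusted p = 0.0763).

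Metabolic and surface genes included the largest measured fall and the second rise. HGD read 10.39, 10.20, 10.16 and 10.30 with shLuc and GFP, WT, BRD and ATPdead, and 5.30, 8.15, 8.50 and 5.11 with S2sh7. All 4 S2sh7 arrays lay under all 4 shLuc arrays, with those of GFP and ATPdead near background. The class effect without an active SMARCA4 was -5.14 log2 (SE 0.115, adjusted p = 1.53e-07). CPS1 went from 12.45 to 10.09 with GFP and from 12.24 to 10.38 with ATPdead, a 4.31-fold fall, and still read far above background. FGFR4, the receptor for the bile acid hormone FGF19, went from 9.23 to 7.06 and from 9.19 to 7.07, a 4.41-fold fall. DPP4, a surface peptidase, fell by 0.65 as measured, and by at least 0.20 with readings under log2 5 set to that limit.

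AADAC, a marker of the set, rose. It read 8.82 with shLuc and GFP and 9.34 with S2sh7, and 9.01 and 9.60 with ATPdead. The class effect was 0.56 log2 (SE 0.156, adjusted p = 0.0183), a call that was lost without GFP (adjusted p = 0.0889) or without ATPdead (adjusted p = 0.117). TAT, the enzyme that starts tyrosine breakdown, and ASGR1, the hepatocyte receptor for desialylated glycoproteins, were not called and read under log2 6 in every A549 array. HGD and TAT act in the same pathway, and their readings moved differently, -5.14 and 0.15.

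With WT or BRD SMARCA4, whose ATPase domain is intact, the same knockdown lowered fewer of these genes. Of the 28, 8 were called lower and 1 higher, with a median of -0.34 log2. Over all genes, 9.28% were called lower and 12.1% higher. The genes called lower were HGD (-1.85), C3 (-1.62), APOH (-0.87), F2 (-0.64), FGFR4 (-0.55), CPS1 (-0.50), C5 (-0.41) and APOM (-0.37). The count rested on both cDNAs: 2 genes were called without WT and 3 without BRD. With all arrays, APOH and CPS1 were lost with no filter (adjusted p = 0.0592 and 0.0571) and with trend and robust settings (0.131 and 0.0814). By pairs of single arrays, 14 of the 28 genes were lower by more than 1 log2 with GFP and 14 with ATPdead, against 6 with WT and 2 with BRD. Among all genes these shares were 4.68%, 4.12%, 0.891% and 0.796%.

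The difference between the knockdown effects was tested itself. In 15 of the 28 genes the effect with WT or BRD lay above that with GFP or ATPdead, and in 1, AADAC, below it. Of all genes 12% were called higher and 11.9% lower in this test. Since the genes and classes were chosen with earlier results known, the counts describe that choice too. The difference was 3.70 log2 for FGL1 (SE 0.295, adjusted p = 0.000199), 3.65 for APOH (SE 0.359, adjusted p = 0.000447) and 3.29 for HGD (SE 0.162, adjusted p = 3.27e-05). It was 3.10 for FGB, 3.06 for FOXA2 (SE 0.0884, adjusted p = 5.92e-06), 2.68 for C5 and 2.26 for FGA. HNF4G (1.99), A1CF (1.92), SERPINA1 (1.73), CPS1 (1.61), FGFR4 (1.59), C3 (1.30), FOXA3 (1.13) and DPP4 (0.79) were the other genes with a higher effect. For FOXA2, HNF4G and DPP4 the S2sh7 readings with GFP and ATPdead lay under log2 5, as did that with ATPdead for FOXA3 and SERPINA1. The sizes of these differences are thus uncertain.

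The genes whose difference was not called were FOXA1, NR5A2, APOM, TF, HPX, AHSG, AMBP, FGG, F2, F5, TAT and ASGR1. For AMBP the difference was 1.60 with its brightest probe set in A549 (adjusted p = 0.00349) and 0.85 with the mean of its probe sets (adjusted p = 0.00533), and for APOM it was 0.28 with the mean (adjusted p = 0.0247), all called. For FGG the difference was 0.68 (SE 0.607, adjusted p = 0.477), and for F2 it was 0.05 (SE 0.225, adjusted p = 0.898). F2 fell by similar amounts in both classes, 0.69 and 0.64. Leaving out each cDNA in turn gave 11 to 15 called differences. FOXA3, A1CF and C3 were lost without WT (adjusted p = 0.0693, 0.0761 and 0.0933) or without BRD (0.156, 0.0517 and 0.079), and FGB without BRD (0.0587). AADAC was lost without GFP (adjusted p = 0.0915), BRD (0.121) or ATPdead (0.101).

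**Figure D4:**
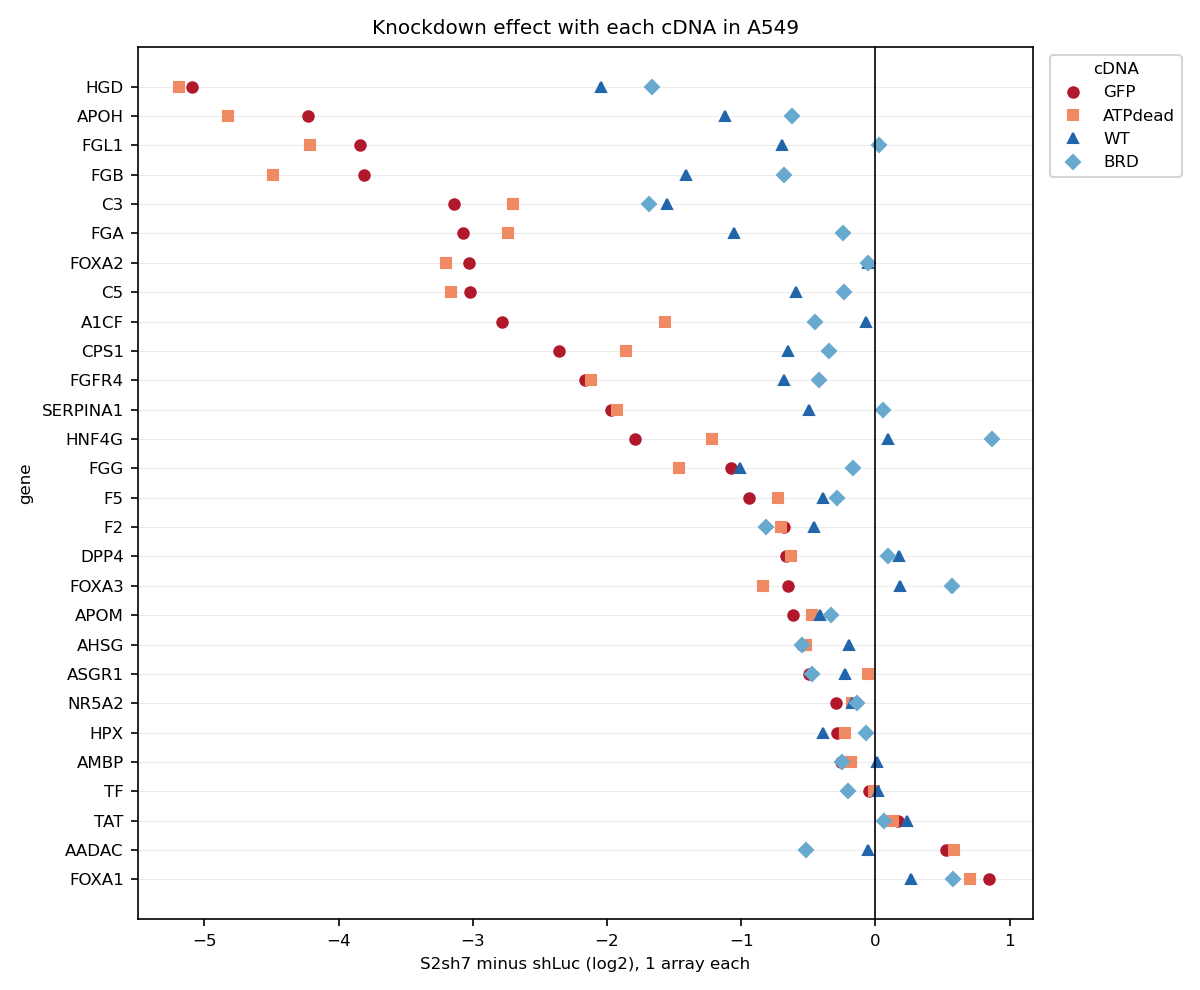
Difference between S2sh7 and shLuc in log2, for each of the 28 tested genes and each cDNA in A549, with 1 array on each side. Red and orange symbols (GFP, ATPdead) reach -5.10 and -5.19 for HGD, while dark and light blue ones (WT, BRD) are at -2.05 and -1.66. For FOXA2 the blue symbols lie at the line of no change.

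The cDNA classes were called different in cells with S2sh7 but not in cells with shLuc. Under shLuc no gene of the 28 was called between WT or BRD and GFP or ATPdead, and 0 of the 28 had an unadjusted p under 0.05. Of all genes 0% were called, with 746 at an unadjusted p under 0.05. Under S2sh7, 16 of the 28 were higher with WT or BRD and 2, FOXA1 and AADAC, were lower, with a median difference of 0.94. Of all genes 17.8% were called higher and 20.9% lower. FGL1 was 3.74 higher (SE 0.208, adjusted p = 1.36e-05), APOH 3.66, FGB 3.16, HGD 3.12 and FOXA2 2.92. AADAC was lower by -0.91 (adjusted p = 0.00253) and FOXA1 by -0.31 (adjusted p = 0.0493). The FOXA1 call was lost without GFP (adjusted p = 0.137), WT (0.302) or ATPdead (0.159). It was also lost with the mean of all probe sets (-0.15, adjusted p = 0.446), no filter (0.0677), repeated quantile normalization (0.0838) and each probe set on its own (0.0526).

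With S2sh7 and WT or BRD SMARCA4, some genes read near their shLuc level and others well under it. With S2sh7, FOXA2 and A1CF with WT read 7.81 and 7.46, against 7.87 and 7.53 with shLuc. HGD with WT read 8.15 against 10.20, and C3 7.29 against 8.85. With BRD, FGL1 read 10.69 under S2sh7 and 10.66 under shLuc, and SERPINA1 6.98 and 6.92. In 17 of the 28 genes the single WT pair was lower than the single BRD pair. The same count, 17, had a lower GFP pair than ATPdead pair. For FGA the pairs gave -1.05 with WT and -0.24 with BRD, and for FGB -1.41 and -0.68. With 1 array of each per hairpin, the knockdown effects with WT and BRD were not tested against each other.

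Over all 4 cDNAs, with cDNA as a term in the fit, 8 of the 28 genes were called lower and 1, FOXA1, higher in A549, against 9.06% and 12% of all genes. These were HGD (-3.50), C3 (-2.27), FGFR4 (-1.35), FGG (-0.93), F2 (-0.67), F5 (-0.59), APOM (-0.46) and AHSG (-0.45). This fit holds 1 knockdown effect for all cDNAs, so genes whose effect differed most by cDNA carried large errors: FOXA2 gave -1.59 with an SE of 0.665 (adjusted p = 0.139). The count was 0 without GFP, 0 without ATPdead, 4 without WT and 8 without BRD. With all arrays the FGFR4 call (adjusted p = 0.0498) was lost under 4 alternatives (0.0505 to 0.0549). With each probe set fitted on its own, 15 genes were called.

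Other liver genes, from lists drawn up with earlier results of these data known, were set beside these in A549. With GFP or ATPdead, 9 of 11 tested plasma protein genes outside the set were lower, as were 7 of 11 coagulation genes, 5 of 9 complement genes and 11 of 18 enzymes of drug and bile acid metabolism. None of these 4 lists had a gene called higher, and over all genes 22.9% were lower and 27% higher. With WT or BRD, 5 of the 11, 3 of the 11, 2 of the 9 and 5 of the 18 were lower, and 1 complement gene was higher, against 9.28% and 12.1% of all genes. The difference between the effects was called higher in 7, 6, 5 and 7 of them and lower in 0, against 12% and 11.9% of all genes. RBP4, the plasma carrier of retinol, moved by -4.67 with GFP, -4.27 with ATPdead, -3.36 with WT and -2.93 with BRD, and fell by 3.81 over the 4 cDNAs (SE 0.305, adjusted p = 0.00889). That call was lost without ATPdead (-3.65, adjusted p = 0.061). Over the 4 cDNAs CP, the copper carrier ceruloplasmin, fell by 2.10, and the bile acid conjugating enzyme BAAT by 2.45. The complement proteases C1R and C1S changed by -1.96 and -1.77. Calls for CP, BAAT, C1R and C1S were lost without GFP (adjusted p = 0.0893, 0.127, 0.091 and 0.0602), without WT (0.0689, 0.0571, 0.0671 and 0.051) and without ATPdead (0.107, 0.152, 0.137 and 0.0815), and that of BAAT also without BRD (0.0661).

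Of 12 other liver transcription factors 8 were lower and 1 higher with GFP or ATPdead, against 22.9% and 27% of all genes. Over the 4 cDNAs the oxysterol receptor NR1H3 fell by 0.77, PPARA by 0.53 and GATA6 by 0.51, and NR2F1 rose by 1.07. Those 4 calls were lost without GFP (adjusted p = 0.0525, 0.0761, 0.0625 and 0.0872) and without ATPdead (0.0694, 0.0923, 0.0764 and 0.0809), and that of GATA6 also without WT (0.0563). Of 12 other lipoprotein genes 5 were higher and 2 lower with GFP or ATPdead, and of 6 urea cycle and ammonia genes 2 were higher and 2 lower. Of all genes 27% were higher and 22.9% lower. Among the lipoprotein genes ANGPTL4 rose by 1.91 with GFP or ATPdead (SE 0.117, limma adjusted p = 7.73e-06). Its effect with WT or BRD minus that effect was -1.40, which was called. Over the 4 cDNAs ASL, which releases arginine, fell by 0.89, while SLC25A15, the mitochondrial ornithine carrier, rose by 0.43. The ASL and SLC25A15 calls were lost without GFP (adjusted p = 0.0506 and 0.116) and without ATPdead (0.0694 and 0.13), and that of SLC25A15 also without WT (0.0689). None of 3 genes of hepatic sugar metabolism was called in limma, 0 had an unadjusted p under 0.05, and their median was -0.14.

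Markers of other cell types moved in part with the hepatocyte-type genes. Of 14 enterocyte markers 9 were over log2 5 in all 4 A549 shLuc arrays. Their summed linear level was 806 to 893 with shLuc, 508.6 to 548.6 with S2sh7 and GFP or ATPdead, and 705 to 830 with S2sh7 and WT or BRD. CDH17, a cadherin of the intestine and liver, made up much of this: its mean was 8.24, 4.96 and 7.97 in those groups, with a knockdown effect of -3.36 log2 with GFP or ATPdead (SE 0.261, adjusted p = 2.58e-05). LGALS4, a galectin of the gut epithelium, fell by 1.25 with GFP or ATPdead (SE 0.185, adjusted p = 0.000773). The enterocyte genes CDX1 and VIL1 averaged 6.37 and 6.18 with shLuc, and 6.46 and 6.15 with S2sh7 and GFP or ATPdead, while VIL1 changed by -0.77 with the mean of all its probe sets (adjusted p = 0.00158). Alveolar markers, 7 of 12 over log2 5, summed to 713 to 731, 730 to 742 and 674 to 711. Leukocyte and endothelial markers, 3 of 7 over log2 5, summed to 281 to 319, 210 to 221 and 242 to 265, with CD14, which hepatocytes also make, at 6.82, 5.16 and 6.22. The part of other cell types in the result was not tested. As a sign of RNA quality, the log2 difference of the 3′ and 5′ ACTB control probe sets was 0.17 to 0.20 with shLuc and GFP or ATPdead, and 0.17 to 0.18 with S2sh7 and those cDNAs. With WT or BRD it was 0.22 to 0.24 under shLuc and 0.18 to 0.23 under S2sh7.

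In H1299, where most of these genes were near background, SERPINA1 was the gene that fell with every cDNA. With GFP its 3 shLuc arrays read 6.84, 6.70 and 6.79 and its 3 S2sh7 arrays 5.60, 5.57 and 5.80. The hairpins did not overlap within any cDNA. The knockdown effect was -1.12 log2 with GFP, a 2.18-fold fall (SE 0.0878, adjusted p = 6.65e-09), and -1.07 with WT, -1.17 with BRD and -1.28 with ATPdead (SE 0.0878 each, limma). Of all genes 16.1%, 11.6%, 12.7% and 11.9% were called lower in these comparisons. The SMARCA4 probe set used averaged 7.38 with shLuc and GFP, and it was called lower in each of them too. Its effects were -0.60 with GFP, -0.33 with WT, -0.30 with BRD and -0.37 with ATPdead. Whether the fall of SERPINA1 followed SMARCA2 alone was not tested. A second SERPINA1 probe set fell by 1.95 with GFP, and a dim one gave -0.16, which was not called.

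No SMARCA2 cDNA changed the knockdown effect on SERPINA1 in H1299 by an amount that was called. SMARCA2 itself, at the probe set used, fell with S2sh7 under every cDNA: 2.47-fold with GFP, 2.01-fold with WT, 2.7-fold with BRD and 2.2-fold with ATPdead (SE 0.103 log2 each, limma). Its mean with shLuc was 6.40 with GFP, 6.29 with WT, 6.46 with BRD and 6.39 with ATPdead. With S2sh7 the SMARCA2 means were 5.10, 5.28, 5.02 and 5.25 in that order. The SMARCA2 cDNAs were thus not visible at this probe set, and whether they were expressed was not tested. On SERPINA1, the effect with WT minus that with GFP was 0.05 (SE 0.124, adjusted p = 0.89), with BRD -0.05 (adjusted p = 0.946) and with ATPdead -0.15 (adjusted p = 0.677). Under shLuc, SERPINA1 was 0.54 higher with BRD than with GFP (SE 0.0878, adjusted p = 0.00364; 0.864% of all genes were called higher). Group means with shLuc were 6.78 ± 0.0689 with GFP, 6.99 ± 0.0248 with WT, 7.32 ± 0.0585 with BRD and 6.86 ± 0.1231 with ATPdead (SD, n = 3). With S2sh7 they were 5.66 ± 0.1237, 5.92 ± 0.0855, 6.15 ± 0.1786 and 5.59 ± 0.1591 in that order (SD, n = 3). ATPdead lay under WT with S2sh7 by -0.33 (adjusted p = 0.0468; 1.41% of all genes were called lower). That call was lost on leaving out any WT array or ATPdead replicate 1 or 3 (adjusted p = 0.0757 to 0.201), with no filter (0.0726), with centred arrays (0.0664) and with each probe set on its own (0.0613).

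**Figure D5:**
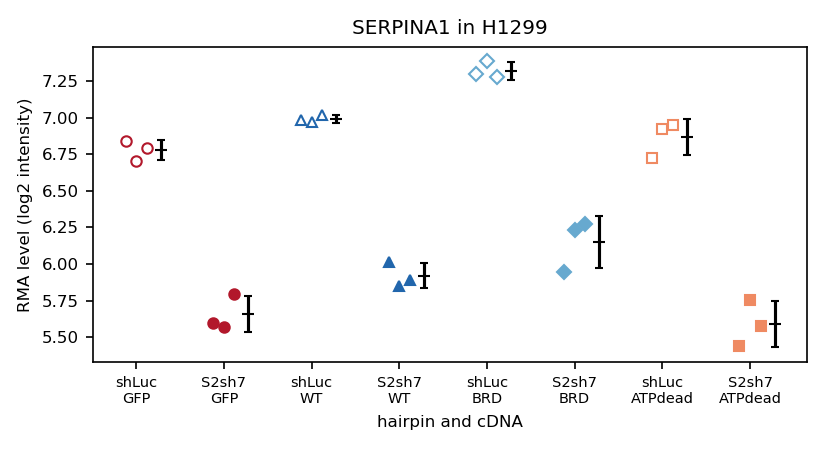
Level of SERPINA1 in the 24 H1299 arrays, in log2 RMA intensity, by hairpin and cDNA. Open symbols are shLuc and filled ones S2sh7; black bars give mean and SD of 3 arrays. The shLuc arrays lie at 6.70 or above and the S2sh7 arrays at 6.27 or under.

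The other genes moved little in H1299. With GFP, FGFR4 (0.34), A1CF (0.26) and FOXA3 (0.24) were called higher, 3 of 28 against 13.6% of all genes, and A1CF and FOXA3 read under log2 5 in all 24 arrays. FGFR4 read 5.26 ± 0.0927 with shLuc and 5.60 ± 0.0787 with S2sh7 (SD, n = 3). These calls were not firm: 2 of the 4 calls with GFP were left without shLuc replicate 3 (FOXA3 at adjusted p = 0.162, FGFR4 at 0.0533), and 2 without S2sh7 replicate 3 (FOXA3 at 0.171, A1CF at 0.156). FOXA3 and A1CF were also lost without shLuc replicate 1 (0.0831 and 0.0899), A1CF without shLuc replicate 2 (0.068) and FOXA3 without S2sh7 replicate 2 (0.11). With all arrays FOXA3 was lost under 6 alternatives (adjusted p = 0.0501 to 0.0833), and A1CF with the mean of its probe sets (0.131). With WT, BRD or ATPdead SMARCA2 the single call was SERPINA1. With ATPdead the count was 2 without S2sh7 replicate 2, where AMBP was also called (-0.25, adjusted p = 0.0128).

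No difference of the knockdown effect between a SMARCA2 cDNA and GFP was called in limma for any of the 28 genes in H1299. Of all genes 2.28%, 0.558% and 0.0612% were called for WT, BRD and ATPdead, and 2, 1 and 3 of the 28 had an unadjusted p under 0.05. BRD against WT with S2sh7 called 0 of the 28 (1 at an unadjusted p under 0.05) and 0.0612% of all genes. WT and ATPdead against GFP with shLuc called 0 of the 28, against 2.74% and 0.122% of all genes, with 3 of the 28 at an unadjusted p under 0.05 in each. FOXA2 read 3.25 to 4.07 in H1299 and CPS1 3.19 to 3.59, so a fall in such genes could not have been seen.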

How the data were processed

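RNA of 24 H1299 and 8 A549 samples was hybridised to Affymetrix arrays (HG-U133 Plus 2.0). The deposited values are RMA intensity per probe set on a linear scale. The submitters' processing notes name RMA and limma; their versions, and a genome build, are not given in the sources used here. The log2 of each intensity was taken with no pseudocount. A single gene symbol was paired with 41097 of the 54675 probe sets, several symbols with 1801 and no symbol with 11777. The brightest probe set over 32 arrays stood for each of 19775 genes, and 14695 of them (74.3%) passed the filter of log2 above 5 on 3 or more arrays and were tested. The number of arrays limits the precision.

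Each line was fitted alone in limma 3.58.1 (R 4.3.3, data.table package, version 1.17.8), with eBayes and Benjamini-Hochberg adjustment over all genes tested, and calls at adjusted p under 0.05. A549 had a fit of cDNA plus hairpin (3 residual degrees of freedom) and a fit of 4 classes of 2 arrays each (4 residual degrees of freedom). H1299 had 8 group means (16 residual degrees of freedom). The fits were also run on simulated data with known shifts, drawn with independent normal noise of the spread of these arrays. Such data hold no effect shared by an array or a construct, so nothing is concluded from them here. The members, lists and classes were chosen with earlier results of these data known. Every member could be named, with SMARCA2 and SMARCA4, up to 4 called genes of smallest adjusted p per other list in A549 and up to 3 brightest markers per cell type.

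Alternatives were other choices of probe set, filters, scaling, eBayes settings, a replicate block and leaving out arrays. Samples with the same H1299 replicate number did not deviate together: the correlations were -0.186 to 0.099, with 0 of 12 over 0.1. Promoters and figures used Python 3.11.15, pandas 2.3.3, numpy 2.4.6 and matplotlib 3.10.9.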

Additional observations from a re-analysis of the deposited data

Results flagged for a closer look

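In A549 the knockdown effect differed between cDNAs in 16 of 28 genes, by a test of the difference (WT or BRD minus GFP or ATPdead, limma). Of all genes 12% were called higher and 11.9% lower. The genes and classes were chosen with earlier results known, so the count describes that choice too. The calls of FOXA3, A1CF, C3, FGB and AADAC were lost in some runs that left out a cDNA. The differences in log2 were A1CF 1.92, AADAC -0.84, APOH 3.65, C3 1.30, C5 2.68, CPS1 1.61, DPP4 0.79 and FGA 2.26. They were FGB 3.10, FGFR4 1.59, FGL1 3.70, FOXA2 3.06, FOXA3 1.13, HGD 3.29, HNF4G 1.99 and SERPINA1 1.73. For DPP4, FOXA2, FOXA3, HNF4G and SERPINA1 the sizes are uncertain, since S2sh7 readings with GFP or ATPdead lay under log2 5. AADAC was the gene with the opposite sign. The knockdown raised it with GFP or ATPdead by 0.56, a call that was lost without GFP or without ATPdead. Its effect with WT or BRD was -0.29, which was not called (limma adjusted p = 0.235). The single pairs of AADAC were -0.05 with WT and -0.52 with BRD.

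In 4 genes the readings of the 3 H1299 arrays with S2sh7 and GFP all lay above those with shLuc and GFP, while all 4 A549 pairs were lower, as held for 3.71% of all genes. The differences in H1299 were A1CF 0.26, APOM 0.18, F5 0.11 and FGFR4 0.34, of which those of APOM (adjusted p = 0.161, limma) and F5 (adjusted p = 0.36) were not called. A1CF and F5 read under log2 5 in all 24 H1299 arrays, near background, so a direction cannot be read from them. In A549, over the 4 cDNAs, the effects were -1.22, -0.46, -0.59 and -1.35 in that order, of which that of A1CF was not called (adjusted p = 0.113). The difference between the lines was not tested, and line and batch cannot be told apart.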

How the results depend on the processing

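Alternatives not named here left each count of called genes among the 28 within 1.5 times of the reported count. In A549 over the 4 cDNAs the count of 9 became 15 with each probe set on its own, and 0 to 8 on leaving out a cDNA. With WT or BRD it went from 9 to between 2 and 8 on leaving out a cDNA; with GFP or ATPdead from 23 to 20 to 23. The differences went from 16 to 11 to 15. In H1299 with GFP the count of 4 became 2 with a filter within the line and 2 to 4 on leaving out an array. With WT the count of 1 became 2 with the mean of all probe sets. With BRD it became 2 with that mean and 2 with the brightest probe set in A549. With ATPdead it was 1 to 2 on leaving out an array. The difference of WT and GFP went from 0 to 1 with each probe set on its own. ATPdead against WT under S2sh7 went from 1 to 0 with no filter, to 0 with centred arrays and to 0 to 1 on leaving out an array. VIL1 turned from 0.04, not called, to -0.77 (adjusted p = 0.00158, limma) with the mean of all its probe sets in A549 with GFP or ATPdead. The cause was not tested in the other cases.

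H1299 replicate numbers did not pair the arrays: 8 of 24 correlated best with their own number. With the replicate block the count with GFP was 3, through FOXA3 (adjusted p = 0.0513, limma), and no other count changed. Scaling moved the all-gene split in H1299 with GFP: 45.9% of called genes were higher as deposited, 54.8% after repeated quantile normalization and 38.3% with centred arrays. Precision is limited by 1 array per A549 group and by readings near background in H1299.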
